A study of Homo sapiens with 4 samples.

Results

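The genes described are 10 members of the Krüppel-like factor (KLF) family in LNCaP cells: KLF2, KLF3, KLF4, KLF5, KLF6, KLF9, KLF10, KLF12, KLF13 and KLF15. LNCaP is an established human prostate cancer line that carries the androgen receptor. For each gene, every ChIP-seq peak was taken that overlaps the gene or 50 kb on either side of it in build hg19. This gave 41 of 57623 H3K27Ac peaks after vehicle, 44 of 60752 H3K27Ac peaks after dihydrotestosterone (DHT) and 49 of 20955 TCF7L2 peaks, around 10 of 19794 protein-coding genes.

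Both H3K27Ac libraries came from passage 20 cells kept in charcoal-stripped serum, which removes steroids. One received the vehicle and the other 10 nM DHT, the active androgen of the prostate, for 4 h. The TCF7L2 library came from passage 15 cells in serum that was not stripped, with no DHT added, so passage, serum and antibody all differ from those of the H3K27Ac libraries and their effects cannot be told apart. Each condition was 1 library of 1 cell line, so no test could be made between conditions, and every value below compares libraries. The intervals are 95% intervals that cover counting error only.

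KLF proteins bind GC-rich and CACCC sequences through zinc fingers at their carboxyl end, and they differ in what the rest of the protein recruits. KLF2, KLF4, KLF5 and KLF6 mainly activate transcription. KLF3 and KLF12 recruit the corepressor CtBP, KLF9, KLF10 and KLF13 recruit SIN3A, and KLF15 acts mostly in metabolic tissues. H3K27Ac, acetylation of lysine 27 of histone H3, marks active promoters and enhancers. TCF7L2 is the DNA-binding partner of β-catenin at the end of the Wnt pathway.

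Peak heights are given in tags, the height of the read pileup as deposited. In the H3K27Ac lists they ran from 9 to 212 tags (median 22) with vehicle and from 10 to 213 (median 23) with DHT. In the TCF7L2 list they ran from 15 to 229 (median 31). Because the number of reads behind each list is not known here, the libraries were compared by rank. The rank-matched ratio is the height with DHT divided by the height that the DHT list holds at the rank of the vehicle peak. A ratio of at least 1.5, or of at most its inverse, was taken as past the fold. The label was checked on promoter peaks of marker genes. Luminal prostate markers had one in 7 of 8 genes with vehicle and in 8 of 8 with DHT (summed height 745 and 1023 tags). Basal epithelial markers had one in 0 of 4 genes and leukocyte markers in 0 of 3, whereas stromal markers had one in 1 of 3 (34 tags with vehicle, 37 with DHT) and endothelial markers in 1 of 2 matched genes (47 tags in both lists).

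The sequences under the peaks that stand out around these genes are shown first. Of the 6 TCF7L2 peaks of 80 tags or more, 5 hold the letters CTTTGAT or CTTTGAA on either strand, the core that TCF proteins recognise. That limit was chosen after the values were seen, and a 79-tag peak of KLF6 without the core falls just under it. In the whole list, 55.4% of peaks of that height hold the core. Over all 49 peaks around these genes the share was 22.4%, against 32% of all TCF7L2 peaks. Each of the 5 is printed 5′ to 3′ on the plus strand of GRCh37, with the core in capitals and 30 bases on each side.
KLF2, chr19:16407834-16407900, 86 tags, outside protein-coding genes: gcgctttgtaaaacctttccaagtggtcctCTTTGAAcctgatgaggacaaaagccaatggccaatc
KLF5, chr13:73630542-73630608, 84 tags, intron of the longer transcript: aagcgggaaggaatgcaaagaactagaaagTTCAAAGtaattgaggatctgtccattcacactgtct
KLF5, chr13:73664682-73664748, 204 tags, outside protein-coding genes: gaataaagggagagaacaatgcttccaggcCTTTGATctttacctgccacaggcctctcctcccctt
KLF6, chr10:3852558-3852624, 157 tags, outside protein-coding genes: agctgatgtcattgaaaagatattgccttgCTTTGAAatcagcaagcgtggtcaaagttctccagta
KLF13, chr15:31691067-31691133, 80 tags, intronic: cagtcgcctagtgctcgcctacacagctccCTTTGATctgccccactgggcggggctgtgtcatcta
The KLF5 sequence of the 84-tag peak carries the core on the minus strand and the other 4 on the plus strand.

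The palindromic androgen element, GNACA and TGTNC parted by 3 bases, was searched for in the H3K27Ac regions because DHT acts through the androgen receptor. It reads alike on both strands. It was found in 4 of the 45 regions around these genes, and each copy is shown with the element in capitals.
KLF3, chr4:38623604-38623628, upstream: taaacaGAACACGGTGTCCtggaac
KLF6, chr10:3818980-3819004, last exon: tcacctGAACAGAATGTACttcttt
KLF9, chr9:73035036-73035060, upstream: gttgtgGAACAGTTTGTCCttttta
KLF15, chr3:126074818-126074842, intronic: gggaggGGACACGCTGTTCcgggca
That is 8.89% of the regions (Wilson interval 3.51 to 20.7%), against 4.03% of all 66690 regions. The median width was 2100 bp around these genes and 1800 bp over all regions.

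The tallest H3K27Ac peak near each KLF gene ranked higher with DHT than with vehicle for 10 of 10 genes. Over the 17719 protein-coding genes with a peak in both lists, 50.7% did so. The median rank-matched ratio was 1.26 for the 10 genes and 1 for all genes. The ratio was past the fold for KLF4 and KLF3 and under it for the other 8. For KLF5, KLF6 and KLF12 the tallest peak lay at a different place in each list, and for the other 7 genes it lay in the same region. For KLF2 that region was over the promoter of the neighbouring gene EPS15L1, so it cannot be given to KLF2. Acetylation near these genes was not unusually tall to begin with. The median tallest peak was 47.5 tags with vehicle, against 60 over all genes, and 66.5 with DHT, against 66.

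**Figure D1:**
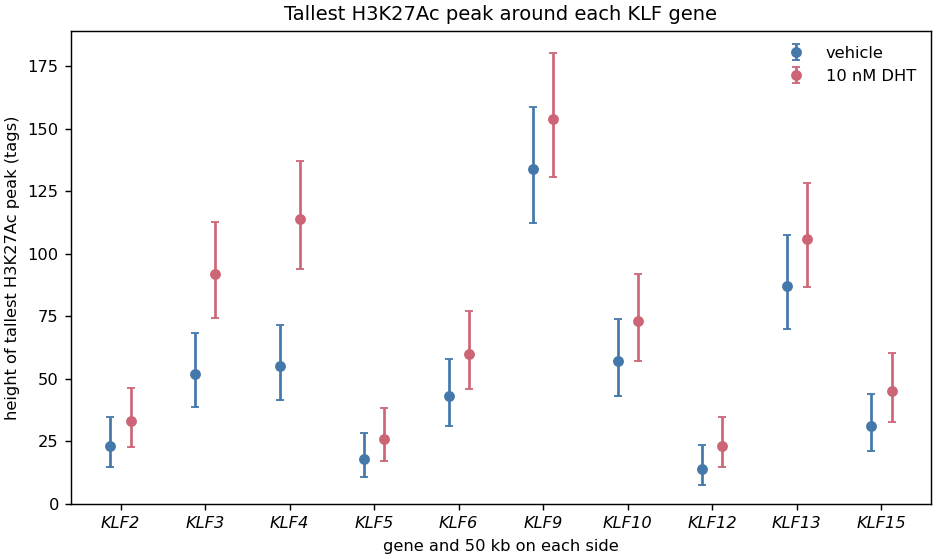
The tallest H3K27Ac peak, in tags, within 50 kb of each of 10 KLF genes, with vehicle (blue) and with 10 nM DHT (red), 1 library each; bars are 95% Poisson intervals. KLF4 goes from 55 to 114 tags and KLF3 from 52 to 92 with intervals that do not overlap, and KLF9 is the tallest in both libraries at 134 and 154 tags.

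Peaks of both lists that overlap were joined into regions, so that the same place could be compared. There were 45 regions around the 10 genes, 36 of them in both lists, 7 in the DHT list only and 2 in the vehicle list only. Over all 66690 regions, 15.6% were in the DHT list only and 10.2% in the vehicle list only. Of the 36 shared regions, 7 were past the fold upward, against 9.54% of 49492 shared regions, and 1 was past it downward, against 12.7%. A ratio above 1 was found in 21 of the 36, compared with 38.8% of all shared regions, and the median ratio was 1.09 against 0.947. Counting error is large for low peaks, so the taller regions were also counted apart. Among the 13 regions with at least 40 tags with vehicle, 2 were past the fold upward, against 3.52% of such regions in the genome.

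All 7 regions past the fold upward lay away from the KLF promoters. They were 2 regions each of KLF3, KLF4 and KLF12 and 1 of KLF6, out of 28 shared regions not over a KLF promoter. The count over KLF promoters was 0 of 8. Promoters of all genes, taken peak by peak, were past the fold upward in 2.58%, where all shared regions were in 9.54%. By role, 3 of 10 shared regions of the activators were past the fold upward, and 4 of 9 of the CtBP-binding repressors. For the SIN3A-binding repressors it was 0 of 16. The share over all shared regions was the 9.54% given above. The corresponding median ratios of these groups were 1.29, 1.04 and 1.04. The SIN3A-binding count includes regions within the neighbouring genes SMC5 and OTUD7A, and the activator count includes a region over the EPS15L1 promoter. Regions of the same gene are also not separate units, so these counts describe places and not the roles. In the CtBP-binding group, the KLF12 regions past the fold and that inside KLF3 started at 11 or 12 tags. The 1 downward region belonged to KLF13, a SIN3A-binding member. Its ratio of 0.67 lay at the cut, and the interval of its plain ratio, 0.456 to 1.20, includes 1.

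**Figure D2:**
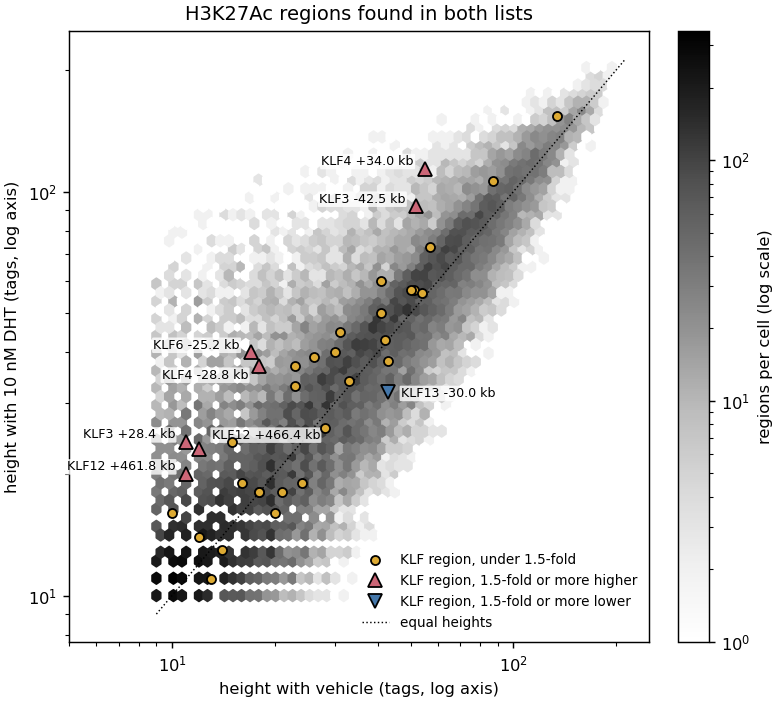
Height of each H3K27Ac region with vehicle (horizontal, tags, log axis) against its height with 10 nM DHT (vertical, tags, log axis), for all 49492 regions in both lists (grey cells, darker for more regions) and the 36 around KLF genes (markers). The 7 red triangles are at least 1.5-fold higher by rank-matched ratio and labelled with distance from the gene's start, and the 1 blue triangle, 43 tags with vehicle and 32 with DHT near KLF13, is lower.

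Among the activators, KLF4 had the tallest region with DHT. KLF4 is one of the factors used to reprogram somatic cells and is given by the study as a gene near a prostate cancer risk locus. No H3K27Ac peak overlapped its promoter in either list, and its 4 regions all lay outside the gene. The region 34.0 kb downstream of the start (chr9:110216220-110219819) had 55 tags with vehicle (Poisson interval 41.4 to 71.6) and 114 with DHT (94.0 to 137). Its rank went from 9338.5 to 1523 and its rank-matched ratio was 1.90. The plain ratio was 2.07 (binomial interval 1.49 to 2.91), where the median over all shared regions was 1.07.

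The other 3 KLF4 regions were lower. At 28.8 kb upstream the height was 18 tags with vehicle and 37 with DHT, a rank-matched ratio of 1.76. At 14.9 kb upstream, a region of nearly the same vehicle height as the 34.0 kb one held 54 and 56 tags, a ratio of 0.95. The flanks of KLF4 thus held regions on both sides of the gene that were higher with DHT, and between one of them and the gene lay a region with about the same height in both libraries. At 51.0 kb downstream the values were 10 and 16 tags, within each other's intervals. None of the 4 KLF4 regions holds the androgen element.

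KLF6 encodes a widely expressed factor with tumour suppressor activity reported in the prostate. Its promoter region was 41 tags with vehicle and 60 with DHT (ratio 1.30), with overlapping intervals of 29.4 to 55.6 and 45.8 to 77.2. The region 25.2 kb upstream (chr10:3851640-3853619) went from 17 to 40 tags, a rank-matched ratio of 2 and the largest among the 36 shared regions. Its plain ratio was 2.35 (1.30 to 4.43). A further region 45.9 kb upstream held 43 and 38 tags (ratio 0.79). Upstream of KLF6, the nearer region was therefore higher with DHT and the farther was not. A peak of 10 tags over the last exon was in the DHT list only, at the lowest height that list holds.

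KLF5, an activator of epithelial proliferation and differentiation that the study also lists near a risk locus, had little acetylation. No peak overlapped a KLF5 promoter in either list. A peak of 26 tags lay 2.07 kb downstream of the canonical start in the DHT list only (chr13:73634070-73636349), and a region 6.13 kb downstream held 18 tags in both lists. As at KLF6 and KLF12, the higher rank of KLF5 with DHT in the tallest-peak comparison therefore set a peak at one place against a peak at another.

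KLF2, known for keeping endothelial cells and T cells quiescent, had a promoter peak of 12 tags with vehicle and 14 with DHT, a rank-matched ratio of 1. Its tallest peak, 23 and 33 tags, lay 38.5 kb downstream over the promoter of EPS15L1, so it cannot be given to KLF2.

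The CtBP-binding repressors differed from each other in height. KLF3, a repressor studied in blood and fat cells, had 6 regions and all were in both lists. The region 42.5 kb upstream was 52 tags with vehicle (38.8 to 68.2) and 92 with DHT (74.2 to 113), a rank-matched ratio of 1.61 and a plain ratio of 1.77 (1.246 to 2.54). It holds the first of the androgen elements printed above. A neighbour 50.7 kb upstream, level with it after vehicle at 51 tags, held 57 with DHT (ratio 1.02), and the promoter went from 50 to 57 (ratio 1.04). Only the middle of these places was past the fold, and they started within 2 tags of each other.

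Inside KLF3, the intronic region 28.4 kb from the start went from 11 to 24 tags (ratio 1.85). The region at 6.85 kb held 33 tags with vehicle and 34 with DHT, and that at 9.70 kb held 28 and 26. KLF12, a repressor first described at the TFAP2A promoter, is the longest of the 10 genes at 448 kb, yet no H3K27Ac peak lay within the gene or over its promoter. Its 3 regions lay just beyond its 3′ end. In order of distance from the gene, the first held 14 tags with vehicle and 13 with DHT (ratio 0.81), the second 11 and 20 (1.54) and the third 12 and 23 (1.64). The plain intervals of both higher regions include 1 (0.830 to 4.201 and 0.915 to 4.23).

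The tallest peak of the 10 genes in both lists was that of KLF9, one of the SIN3A-binding repressors. This gene, a known target of steroid and thyroid hormone receptors, lay under a domain of 14910 bp over its promoter (chr9:73022370-73037279). The domain was 134 tags with vehicle (112 to 159) and 154 with DHT (131 to 180), ranks 460.5 and 223.5. Its DHT height was at percentile 99.2 among promoter peaks of all genes. The ratio was 1.09, and the intervals overlap. With 11 regions KLF9 had the most of the 10 genes. Of the other 10 regions, 5 were shared, with ratios from 0.70 to 1.41, 4 were in the DHT list only at 10 to 19 tags, and 1 was in the vehicle list only at 9. The KLF9 regions found in 1 list were thus all below the median height of that list. Of the shared ones, 3 lay within the neighbouring gene SMC5.

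KLF10, which is induced early by TGF-β, had a promoter region of 57 tags with vehicle and 73 with DHT (ratio 1.18, intervals 43.2 to 73.9 and 57.2 to 91.8). Its regions 38.8 kb downstream and 30.2 kb upstream had ratios of 1.09 and 0.73. KLF13, a regulator of CCL5 in T cells, had 7 regions, all shared. The tallest, 9.24 kb downstream of the start and reaching an alternative start, was 87 tags with vehicle and 106 with DHT (ratio 1.13). The canonical promoter went from 30 to 40 (ratio 1.18). The region 29.97 kb upstream went from 43 to 32, a ratio of 0.67, and was the 1 downward region of the 36. The other regions of KLF13 had ratios between 0.70 and 1.42. The lowest of these ratios was at a region within the gene OTUD7A, with 20 tags with vehicle and 16 with DHT.

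KLF15, which regulates glucose and amino acid metabolism in liver and muscle, had a promoter region of 31 tags with vehicle and 45 with DHT (ratio 1.29). It holds the last of the androgen elements printed above. The remaining KLF15 regions were a DHT-only peak of 12 tags and a vehicle-only peak of 11 tags inside CFAP100.

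**Figure D3:**
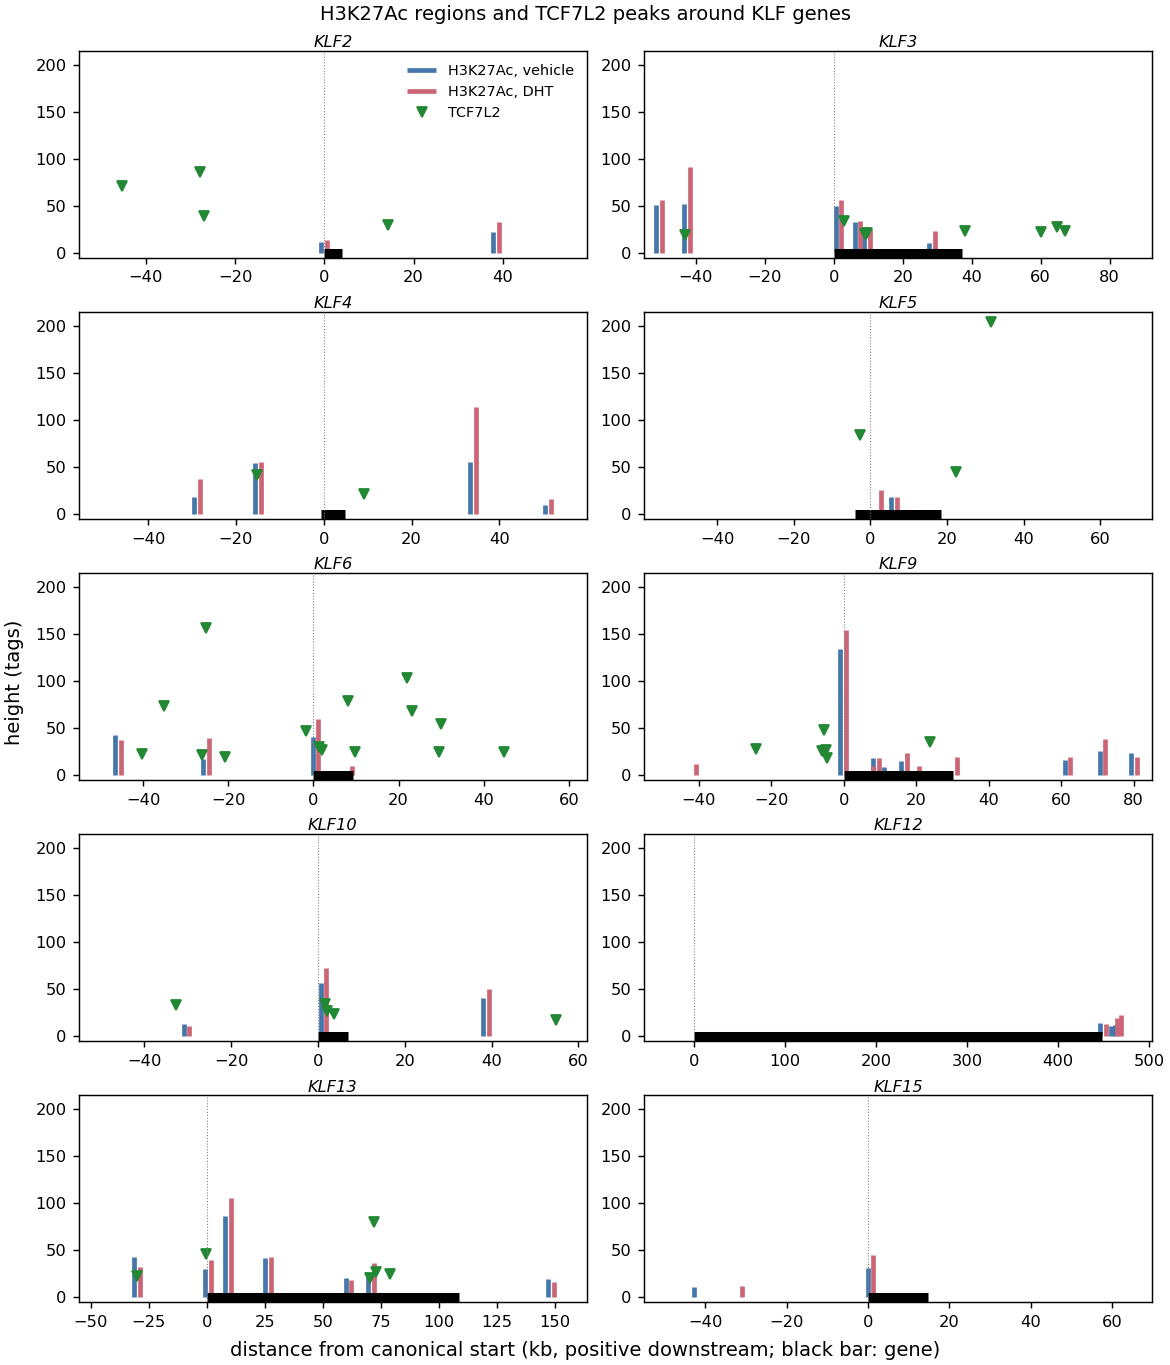
Heights in tags of H3K27Ac regions with vehicle (blue lines) and 10 nM DHT (red lines) and of TCF7L2 peaks (green triangles), against distance in kb from the canonical start of each of 10 KLF genes, positive downstream; the black bar is the gene. KLF5 shows a TCF7L2 peak of 204 tags far from its low H3K27Ac peaks of 18 and 26 tags, KLF6 shows 15 TCF7L2 peaks, and KLF12 and KLF15 show no TCF7L2 peak.

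Promoters were compared on their own, because a promoter can be assigned to its gene. A promoter, from 1000 bp upstream to 100 bp downstream of any start of a protein-coding transcript, carried a peak in both lists for 7 of the 10 genes, against 53.7% of 19794 genes. The exceptions were KLF4, KLF5 and KLF12. For these 7 genes the median tallest promoter peak was 41 tags with vehicle and 60 with DHT, where all genes had 40 and 46. With joined regions, used below, the medians were 50 and 60, where all genes had 41 and 47. The promoter peak ranked higher with DHT in 7 of 7 genes, against 60.5% of 10626 genes. The margin at KLF2 was small, rank 45825.5 against 45783.

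Taken peak by peak, 2 of the 7 promoters were past the fold upward, against 2.58% of 10626 genes, and 0 were past it downward, against 1.03%. These were KLF13, 30 tags with vehicle and 106 with DHT (ratio 3.12), and KLF15, 13 and 45 tags (ratio 3.00). Both ratios came from where the peaks were divided. At KLF13, the 30 tags with vehicle were at the canonical start, which held 40 with DHT, and the 106 tags were at the alternative start. There the vehicle list had 1 peak of 87 tags that stops short of the alternative start and another of 13 tags across it. The DHT list had 1 peak of 106 tags over both. At KLF15, neighbouring vehicle peaks of 31 and 13 tags lay under 1 DHT peak of 45 tags. With joined regions, a choice added after the data were seen, 0 of 7 promoters were past the fold, and 7 of 7 ranked higher with DHT, against 60.2% of 10760 genes. The promoter difference at KLF13 and KLF15 was therefore not seen when the same stretch was compared. Genes were also compared with KLF13 by distance in log2 tags over promoter height with vehicle, promoter height with DHT and tallest TCF7L2 peak. The closest were NUP210, RPS19BP1, TNFAIP8, ZBTB7C and PITHD1. The DHT height of KLF13 used for this was the 106 tags of the joined peak. Its vehicle height was the 30 tags of the canonical start, so these heights come from different places.

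The remaining genes of the family were looked at peak by peak, without joined regions. Of the 8 other KLF genes, KLF7 and KLF16 had a promoter peak in both lists, KLF7 going from 27 to 31 tags and KLF16 from 30 to 35, both with a ratio of 1.03. KLF11 had one of 12 tags in the DHT list only, and KLF1, KLF8, KLF14, KLF17 and KLF18 had none. Of the 9 SP genes, which encode the related specificity protein factors, 5 had one in both lists: SP1, SP2, SP3, SP4 and SP6. SP2 was past the fold, with 29 tags with vehicle and 56 with DHT (ratio 1.70), and the other 4 had ratios from 0.92 to 1. Over all genes, 2.58% were past it upward. Whether the SP2 ratio came from where peaks were divided was not tested. SP7 had one of 11 tags in the DHT list only, and SP5, SP8 and SP9 had none. No promoter of the 17 genes was past the fold downward.

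TCF7L2 peaks were found around 8 of the 10 KLF genes, against 66.7% of all genes, and not around KLF12 or KLF15. Over all genes the median was 1 peak per gene, or 0.831 per 100 kb. KLF6 had 15 TCF7L2 peaks, which is 13.7 per 100 kb, and 0.440% of genes had 15 or more. KLF3 had 8 (5.83 per 100 kb), KLF9 and KLF13 had 6 each (4.61 and 2.87), KLF10 had 5 (4.68), KLF2 had 4 (3.85), KLF5 had 3 (2.45) and KLF4 had 2 (1.89). That median counts genes without a TCF7L2 peak, so having any peak goes far toward passing it. Among all genes, the density percentile ran from 78.0 (KLF4) to 99.96 (KLF6) for these 8 genes. It was 16.6 for KLF12 and KLF15, which had no peak. Genes share windows and peaks with their neighbours, so these are descriptions of places, not of separate units.

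Genes with several TCF7L2 peaks did not always have tall ones. The 8 peaks of KLF3 were 19 to 34 tags high, the 6 of KLF9 were 18 to 48 and the 5 of KLF10 were 17 to 34. KLF5, with only 3, had peaks of 84, 45 and 204 tags. The 204-tag peak, 31.5 kb downstream of the start and beyond the 3′ end, ranked 163 of 20955. At KLF6, heights ran from 19 to 157 tags with peaks of 103 and 79 among them, at KLF2 they were 30, 39, 71 and 86, at KLF13 they ran from 21 to 80, and at KLF4 they were 21 and 42. Over all 49 peaks the median height was 28 tags, close to the 31 of the whole list.

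**Figure D4:**
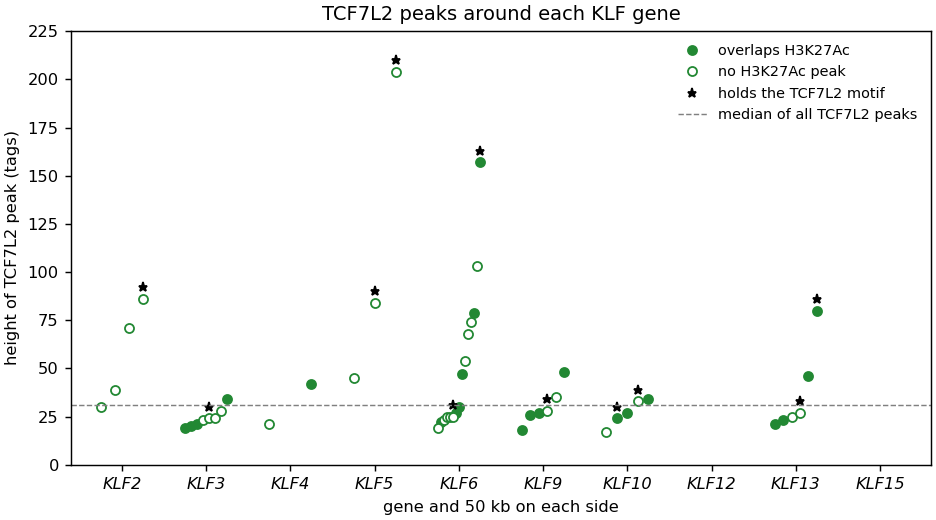
Height in tags of each TCF7L2 peak within 50 kb of 10 KLF genes, 1 library; filled circles overlap an H3K27Ac peak of either list, open circles do not, and a star above a circle means that it holds CTTTGAT or CTTTGAA. The tallest peaks of KLF5 (204 tags) and KLF2 (86) are open circles, that of KLF6 (157) is filled, and KLF12 and KLF15 have none.

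Of the 49 TCF7L2 peaks, 22 overlapped an H3K27Ac peak of either list, 44.9% (Wilson interval 31.9 to 58.7%), against 34.5% of all TCF7L2 peaks. By role, these were 7 of 24 peaks of the activators, 4 of 8 of the CtBP-binding repressors and 11 of 17 of the SIN3A-binding repressors. At KLF9, all 4 of the overlapping peaks lay in the promoter domain, upstream of the start. The peak of 48 tags there covers the androgen element of KLF9 printed above. At KLF2 and KLF5, 0 of 4 and 0 of 3 peaks overlapped H3K27Ac.

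The tall TCF7L2 peaks fell on both sides of this division. The 204-tag peak of KLF5 was 23.3 kb from the nearest H3K27Ac peak, and the 84-tag peak, between the starts of the longer and the canonical transcript, was 3.30 kb from it. The 86-tag peak of KLF2 was 27.1 kb away and the 103-tag peak of KLF6 13.0 kb away. Of the 778 TCF7L2 peaks of at least 150 tags in the whole list, 28.1% overlapped H3K27Ac. In contrast, the 157-tag peak of KLF6 lay inside the region 25.2 kb upstream that was 17 tags with vehicle and 40 with DHT. The 80-tag peak of KLF13 overlapped the edge of an intronic region of 23 and 37 tags (ratio 1.42). It overlapped the DHT peak, whereas the vehicle peak ended at the base just before it. The 79-tag peak of KLF6 overlapped the 10-tag DHT-only peak over its last exon.

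Seen from the acetylation, 12 of the 45 regions overlapped a TCF7L2 peak, against 9.25% of all regions. Among shared regions these were 2 of the 7 past the fold upward, near KLF3 and KLF6, and 9 of the other 29. TCF7L2 was measured without added DHT, and whether its binding near KLF genes differs with DHT was not tested.

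The letters CTTTGAT or CTTTGAA were in 11 of the 49 TCF7L2 peaks, 22.4% (13.0 to 35.9%), against 32% of all TCF7L2 peaks, and the median width was 330 bp in both sets. Their presence went with height. Above a limit of 80 tags, chosen after the values were seen, 5 of 6 peaks held them, where 55.4% of 2997 peaks of that height in the whole list did. Below it, 6 of 43 did, 14.0%, against 28.1% of 17958. The tall peak without them was the 103-tag peak downstream of KLF6. Of the 4 regions that hold the androgen element, 3 were shared and 1 of these, upstream of KLF3, was past the fold upward, where 21.5% of the 2000 shared regions with the element in the genome were.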

How the data were processed

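The peak lists of 3 LNCaP ChIP-seq libraries were used, and the input library was not used here. According to the paper's methods, the authors aligned H3K27Ac reads with Bowtie 2 and TCF7L2 reads with ELAND to hg19 and called peaks with Sole-search in each library separately, with H3K27Ac held to the lower false discovery rate. CASAVA 1.8.2, BWA and Bowtie2 are the tools in the submitters' processing notes. The deposited signal of a peak is the height of its tag pileup in whole tags, which no source used here states to be scaled. Read numbers per library are not known here, so depth could not be compared, and ranks were used to set the libraries side by side.

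Gene spans and starts were those of GENCODE release 44 lifted to GRCh37. Sequences were read from the GRCh37 genome, whose coordinates are those of hg19. Overlap meant at least 1 bp, ranks were counted from the tallest peak, and tied peaks shared their mean rank. Poisson intervals were exact, intervals of a plain ratio were binomial and those of a share Wilson, by scipy 1.17.1 in Python 3.11.15 with pandas 2.3.3, and sequences were read with pyfaidx 0.9.0.4. Rank matching was tested on simulated lists in which every vehicle peak was kept, moved slightly and given a redrawn height. How it behaves where peaks are split, joined, gained or lost between lists was not tested. The members, role groups, markers and gene lists were chosen with earlier results of these data known. All members are named, as are the other KLF and SP genes past the fold or without a promoter peak in both lists, genes whose promoter lies under a peak, and the 5 genes nearest to the member of largest promoter ratio. A further gene was named where a peak lay within it.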

Additional observations from a re-analysis of the deposited data

How the results depend on the processing

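No paired analysis was possible because each condition had 1 library, and no library could be left out. Of 37 alternatives, 26 left a count within 1.5 times its value or a share within its interval and 11 moved it. KLF genes ranking higher with DHT numbered 10 of 10. They numbered 8 of the 8 with a peak in the gene alone, 8 of 8 with a peak in the top 25000 of either list, 8 of 9 with 10 kb on each side and 8 of 10 with 100 kb or by summed heights. The direction of single genes turned. KLF12 ranked lower with DHT at 10 kb (14 and 13 tags), and KLF2 (32 and 33) and KLF5 (35 and 27) at 100 kb. By summed heights KLF13 (279 and 292 tags) and KLF15 (55 and 57) ranked lower among all genes, though their sums were higher. Promoters past the fold numbered 2, and 1 with 2000 bp on each side or with the canonical start alone, and 0 with joined regions. Regions past the fold upward or in the DHT list only numbered 14 of 45. They numbered 6 of 22 with the top 25000 peaks of each list, where fewer regions were left, and 8 of 45 at a fold of 2. Regions past the fold downward or in the vehicle list only numbered 3 of 45, and 8 of 45 at the lower fold tried. These combined counts were not set against a combined share of all regions. TCF7L2 peaks numbered 49, and 15 within the genes alone and 25 with 10 kb on each side. The share with the TCF7L2 core was 22.4%, and 8.16% with CTTTGAT alone (17.0% of all peaks) and 51.0% with CTTTG followed by A or T (59.1%). The androgen element was in 8.89% of regions, and in 60% with 1 mismatch allowed, against 49.0% of all regions. Windows, strictness and letters changed by construction in these cases. Without read numbers and replicates, differences among peaks of 10 to 20 tags could not be told from counting error.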

Other observations

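Farther from the KLF genes, from 50 to 500 kb, the region tallest with DHT was taken for each gene. This is a description, since such regions lie among other genes. Near KLF9, a region 63.5 kb upstream of the start went from 81 tags with vehicle to 136 with DHT, a rank-matched ratio of 1.55. Near KLF13, the promoter region of FAN1 went from 49 to 90 tags, a ratio of 1.67. Of the 10 regions taken, 1 for each gene, only these were past the fold upward, against 9.54% of all shared regions. Choosing a region by its DHT height favours regions that are higher with DHT. The regions of KLF15 (97 tags with vehicle and 73 with DHT), KLF10 (93 and 89) and KLF3 (119 and 115, within FAM114A1) were lower with DHT. That of KLF2 (119 and 152) was higher. Far regions that were not the tallest with DHT are not described.

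Near KLF4, a region 56.8 kb downstream, next to the window used, held 85 tags with vehicle and 114 with DHT (ratio 1.24), the same DHT height as the region 34.0 kb downstream. Near KLF6, a region 67.4 kb upstream held 116 and 140 tags (ratio 1.14), taller than any region within 50 kb of that gene. KLF5 had no tall region at this range either. Its tallest, 98.3 kb upstream within PIBF1, held 35 and 27 tags (ratio 0.69). For KLF12 the tallest held 20 and 25 tags (ratio 1.09). Of the 10 genes, KLF5 and KLF12, both on chromosome 13, had the lowest tallest regions at this distance with DHT.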
